A study of Danio rerio with 6 samples.

Results

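Contraction of striated muscle was followed through 8 genes of the zebrafish: atp2a1, the calcium pump of fast muscle, pvalb2, a parvalbumin, the troponin C genes tnnc2.2, tnnc1a and tnnc1b, the tropomodulin gene tmod4, the cardiac myosin light chain gene cmlc1 and ckma, the muscle creatine kinase. They were taken by name from the array's annotation, through the accession or the description of each probe; the choice of these 8 genes was made with earlier results of these data known. They carry 16 probes and are 8 of 5015 named genes on the array. Of these, atp2a1 has 6 probes, cmlc1 has 3, tnnc1a has 2, of which 1 was assigned through its description alone, and each of the other genes has 1.

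The study measured RNA during vascular development on 6 single-colour arrays, with 1 array per condition. Total RNA of whole embryos, taken 18 and 24 hours after fertilisation (hours post fertilisation, hpf), was set beside RNA of GFP-positive cells that had been sorted from dissociated Tg(Fli1:EGFP) embryos at 18, 24 and 28 hpf, and from embryos of a Flk reporter line, written Tg(Flk:GRCFP) in the design text. The first line carries EGFP under regulatory sequence of fli1, which is active in endothelium, blood and some neural crest, and the second is named for the vascular receptor gene kdrl. For the Flk cells the title gives 18 hpf, which was used here, and the description gives 24 hpf. The source label names whole larvae on all 6 arrays, the sorted samples included, the extraction protocol names the Fli1 line alone, and the strain of the whole embryos is not given. No treatment was given to the fish, and all RNA was amplified in 2 rounds before labelling with Cy3.

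In striated muscle, calcium released from the sarcoplasmic reticulum binds troponin C on the thin filament, tropomyosin moves aside, and myosin heads pull on actin until a calcium pump returns the ion to its store. Parvalbumin buffers calcium in fast fibres, tropomodulin caps the pointed end of the thin filament, and creatine kinase regenerates ATP beside the filaments. In the zebrafish embryo these genes come on as somites turn into contracting trunk muscle and as the heart starts to beat. Neither tissue is a named target of the reporter lines.

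Signals are given as quantile normalized log2 intensity. A probe counted as above background where its background-subtracted spot exceeded the 95th percentile of 173 Arabidopsis control spots on the same array. By that limit 24.7% to 42.6% of 13999 probes were above background on an array, lowest for Fli1 cells at 18 hpf and highest for Flk cells. Over the control spots, the log2 difference between compared arrays had an SD of 0.35 to 0.45, which is the only measure of error for a pair of arrays. It describes spots near background and does not cover bright probes or variation between embryos, sorts or amplifications. A gene was represented by its brightest probe and was called different where 2 arrays were at least 2-fold apart and the brighter one was above background. Where the dimmer array was below background the fold is a lower bound, written as at least. All 8 genes entered the analysis of 6015 genes and unnamed probes, ckma through the whole-embryo array at 24 hpf alone.

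The whole-embryo array at 24 hpf held the highest signal of 7 of the 8 genes. On it 15 of 16 probes and 8 of 8 genes were above background, against 5 probes and 3 genes on the whole-embryo array at 18 hpf. On the sorted arrays the probes above background numbered 4 for Fli1 cells at 18 hpf, 8 at 24 hpf, 8 at 28 hpf and 7 for Flk cells, and the genes numbered 2, 6, 5 and 5. Of the 16 probes this was 31.25% and 93.75% in whole embryos, 25%, 50% and 50% in Fli1 cells and 43.75% in Flk cells. Of all probes it was 37.5% and 39.4% in whole embryos, 24.7%, 32.5% and 32.9% in Fli1 cells and 42.6% in Flk cells. On the arrays of 18 hpf, Flk cells included, the counts therefore do not set the 16 probes apart. The summed background-subtracted intensity of the 8 genes was 2327.5 and 50935.5 in whole embryos at 18 and 24 hpf, against 1511.5 to 3820.5 on the 4 sorted arrays, which were dimmer arrays. By its brightest probe, only tnnc1a was above background on all 6 arrays. In RNA of mixed cells, fewer cells of a type and less RNA per cell cannot be told apart.

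**Figure D1:**
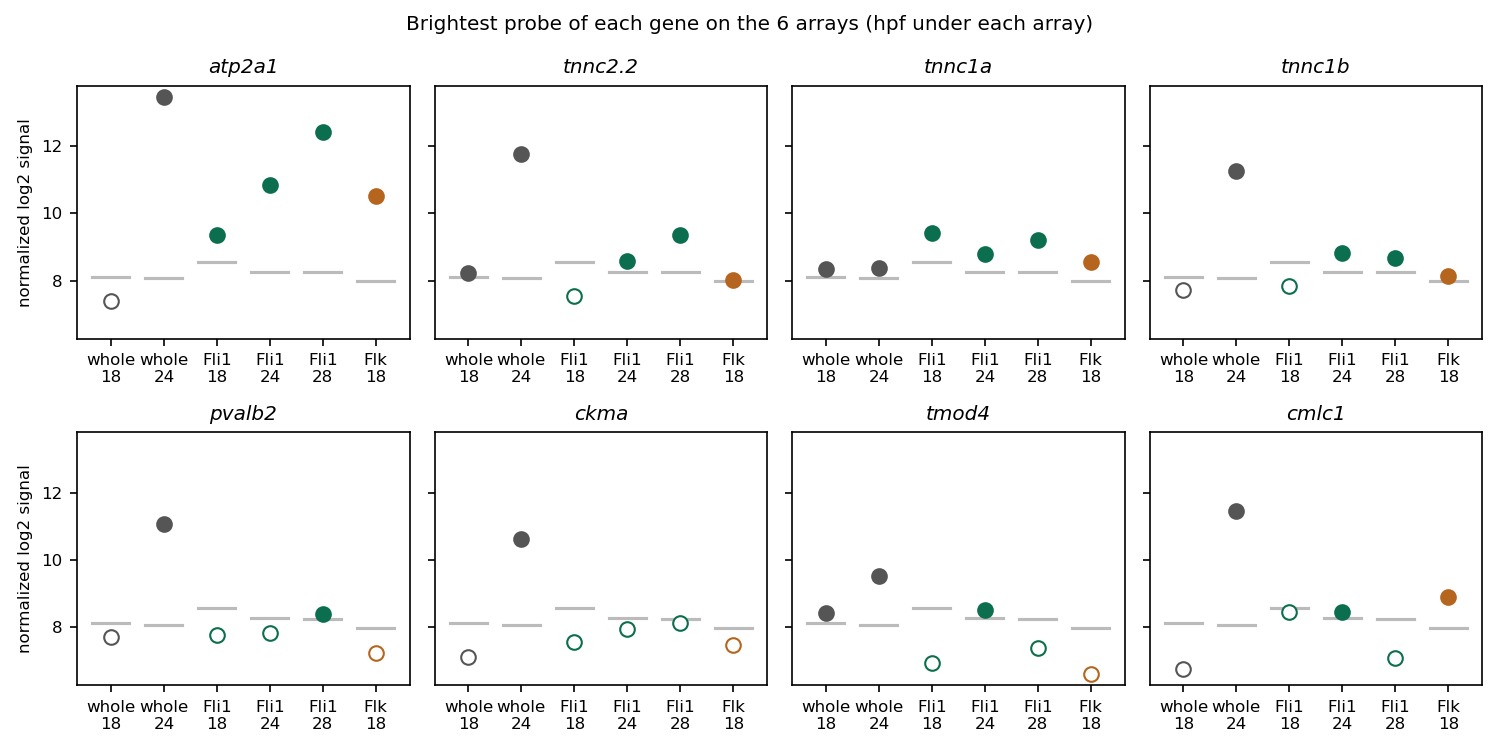
Normalized log2 signal of the brightest probe of each of the 8 genes on the 6 arrays, 1 point per array, with whole embryos in grey, Fli1 cells in green and Flk cells in brown. Filled points are above background, open points are below it, and the grey bars mark the lowest log2 signal above background on each array, from 7.98 to 8.55. The whole-embryo array at 24 hpf is the highest point for every gene except tnnc1a, and the sorted arrays of atp2a1 are all above background, at 9.35 to 12.41.

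The calcium pump gene atp2a1 had the widest range. Its brightest probe read 7.40 in whole embryos at 18 hpf, below background, and 13.45 at 24 hpf, against 9.35, 10.83 and 12.41 in Fli1 cells at 18, 24 and 28 hpf and 10.52 in Flk cells. The 4 sorted arrays therefore lay between the whole-embryo arrays. In background-subtracted intensity the same probe read 190.5 and 24036 in whole embryos, 341.5, 1689 and 2088 in Fli1 cells in order of stage, and 1528.5 in Flk cells, so the step from 24 to 28 hpf in Fli1 cells was larger after quantile normalization than before it. The parvalbumin gene pvalb2 read 7.70 and 11.06 in whole embryos, 7.77, 7.82 and 8.40 in Fli1 cells and 7.21 in Flk cells, and was above background on the whole-embryo array at 24 hpf and on the Fli1 array at 28 hpf.

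Troponin C is the calcium sensor of the thin filament. Its fast skeletal gene tnnc2.2 and tnnc1b, a slow or cardiac form, were both highest in whole embryos at 24 hpf, while the brightest tnnc1a probe was not. The fast gene tnnc2.2 read 8.22 and 11.77 in whole embryos at 18 and 24 hpf, 7.55, 8.58 and 9.37 in Fli1 cells at 18, 24 and 28 hpf, and 8.01 in Flk cells. It was below background in Fli1 cells at 18 hpf alone. The gene tnnc1b read 7.72 and 11.28 in whole embryos, 7.84, 8.81 and 8.68 in Fli1 cells and 8.13 in Flk cells, below background in whole embryos and Fli1 cells of 18 hpf. Its sorted arrays were spread over about 1 log2 unit, all well below the whole-embryo array at 24 hpf.

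The brightest tnnc1a probe, number 2, read 8.35 and 8.37 in whole embryos, 9.42, 8.80 and 9.22 in Fli1 cells and 8.55 in Flk cells. The 4 sorted arrays were all above both whole-embryo arrays in normalized signal. In background-subtracted intensity the order was the other way for all 4, with 467 and 407 in whole embryos and 354 to 396 in the sorted cells, a spread of little more than 100 units. The other tnnc1a probe, number 1, assigned through its description, was above background on the whole-embryo array at 24 hpf alone, with a log2 signal of 8.35.

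The tropomodulin gene tmod4 was above background in whole embryos at both stages, like tnnc2.2 and tnnc1a, with 8.43 at 18 hpf and 9.51 at 24 hpf. It read 6.93, 8.51 and 7.37 in Fli1 cells at 18, 24 and 28 hpf and 6.61 in Flk cells, and only the Fli1 array at 24 hpf was above background among the sorted ones. The cardiac light chain gene cmlc1 read 6.74 and 11.46 in whole embryos, 8.46, 8.44 and 7.09 in Fli1 cells and 8.89 in Flk cells. Its sorted cells were above background at 24 hpf in the Fli1 line and in the Flk line, and were below it in Fli1 cells at 18 and 28 hpf. The creatine kinase gene ckma read 7.12 and 10.62 in whole embryos, 7.57, 7.94 and 8.11 in Fli1 cells and 7.48 in Flk cells, so that 5 of its 6 arrays were below background.

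Between 18 and 24 hpf in whole embryos, 7 of 8 genes were called higher and 0 lower, where 5.54% of all 6015 genes and unnamed probes were called higher and 3.99% lower. The median log2 difference of the 8 genes was 3.53, against -0.07 for all features. For atp2a1 the difference was 6.06, at least 40.6-fold and the 2nd highest of all features, and for cmlc1 it was 4.72, at least 10.2-fold and the 4th highest. The thin-filament sensors tnnc2.2 and tnnc1b were both 3.55 higher, 11.7-fold for tnnc2.2 and at least 8.97-fold for tnnc1b.

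The calcium buffer pvalb2 was 3.36 higher at 24 hpf, at least 7.72-fold, and ckma was 3.51 higher, at least 5.71-fold. These 2 genes, tnnc2.2 and tnnc1b ranked 13th to 17th among all features. The cap protein gene tmod4 was 2.12-fold higher, a difference of 1.08 that passed the 2-fold limit narrowly. The difference of tnnc1a was 0.02, within the SD of 0.36 over the control spots.

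**Figure D2:**
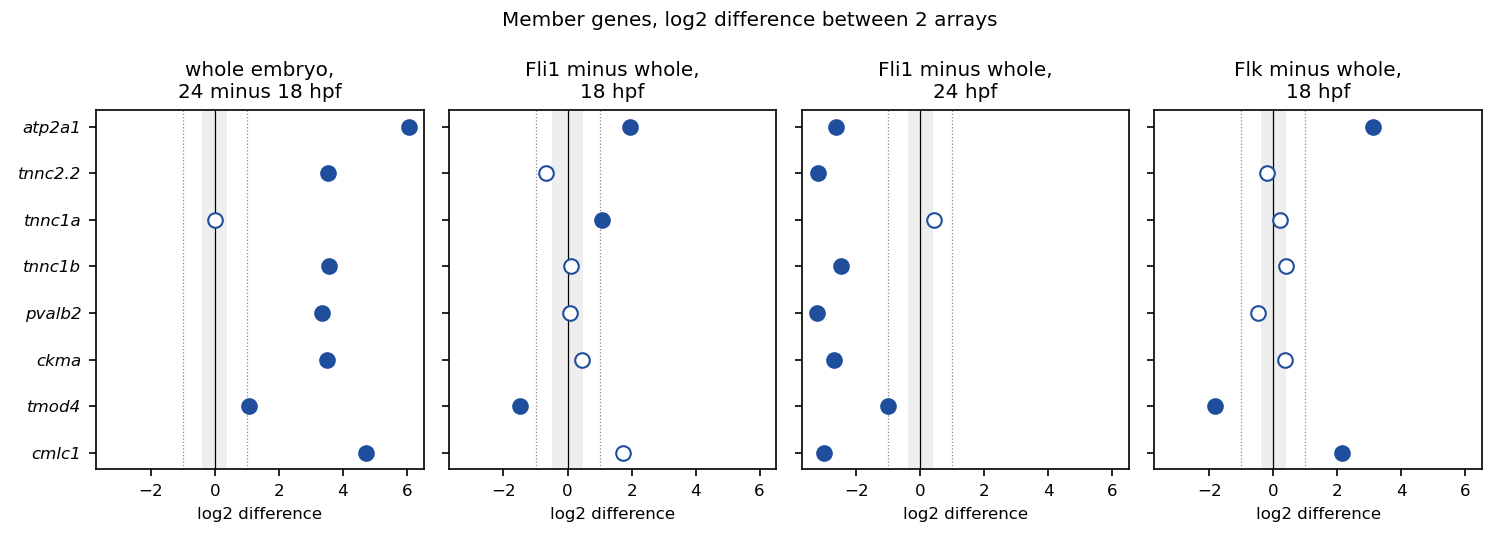
Log2 difference of each of the 8 genes between 2 arrays, in 4 comparisons. Filled points are called at 2-fold with the brighter array above background, open points are not, dotted lines mark 2-fold and the grey band is 1 SD of the control spots. In whole embryos 7 genes lie to the right at 24 hpf, in Fli1 cells of 24 hpf the same number lie to the left, and at 18 hpf the genes lie on both sides of 0.

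At 24 hpf, Fli1 cells had 7 of 8 genes called lower and 0 called higher, set against whole embryos, where 7.76% of all features were called lower and 4.39% higher. The median difference was -2.65, against 0.13 for all features. This comparison and the one between whole-embryo stages share the whole-embryo array at 24 hpf, so that a high or low reading of that array moves both, in opposite directions. Each condition has 1 array, so no further reading of whole embryos at 24 hpf was set beside it.

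The difference for pvalb2 was -3.24, at least 6.95-fold lower in the sorted cells, and for tnnc2.2 it was -3.19, 9.12-fold lower. The gene cmlc1 was 8.09-fold lower with a difference of -3.02, ckma at least 5.14-fold lower with -2.69, atp2a1 6.15-fold lower with -2.62, and tnnc1b 5.53-fold lower with -2.47. These 6 genes ranked from 28th to 54th from the lowest of all features. In the sorted cells the brightest probes of atp2a1, tnnc2.2, tnnc1b and cmlc1 were still above background. For cmlc1 and tnnc2.2 this was narrow, at 8.44 and 8.58, where the lowest signal above background on that array was 8.26. Probes 1, 3 and 5 of atp2a1 and probes 1 and 3 of cmlc1 were below background there. The gene tmod4 was 2.01-fold lower, at the limit of a call that was lost at -0.91 without background correction, and that of tnnc1a was 0.43, 1.35-fold higher.

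At 18 hpf the genes did not move together. In Fli1 cells against whole embryos, 2 of 8 genes were called higher and 1 lower, where 9.89% of features were called higher and 13% lower, and the median was 0.29 against 0.02 for all features. The pump gene atp2a1 was 1.95 higher, at least 2.36-fold, and its 4th probe, above background on both arrays, was 3.15-fold higher. Before normalization, that 4th probe had a background-subtracted intensity of 493 in whole embryos and 495 in Fli1 cells. The 6th atp2a1 probe, also above background on both arrays, differed by -0.25. The mean over the 6 atp2a1 probes was 0.56, which ended the call. That mean includes probes 1, 3 and 5, which were below background on both arrays. For tnnc1a the difference was 1.07, 2.11-fold higher. It was 0.89 under 75th percentile scaling and 0.78 from the scaled values of the authors, which ended the call, and -0.07 as the mean over its probes. Of the tnnc1a probes, number 1 was below background on both arrays. For tmod4 the difference was -1.50, and no fold is given because its signal in whole embryos was under the lowest signal above background on the Fli1 array. In all, 6 of the 8 genes have no fold: tnnc2.2, with a difference of -0.67, tmod4, and the 4 genes tnnc1b, pvalb2, ckma and cmlc1, which were below background on both arrays.

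Flk cells against whole embryos at 18 hpf gave 2 genes called higher and 1 lower, where 6.88% of features were called higher and 6.7% lower, with a median of 0.28 against 0.05. For atp2a1 the difference was 3.12, at least 5.30-fold higher in the sorted cells and the 9th highest of all features, its 4th probe was 3.42-fold higher and its 6th differed by -0.32. The gene cmlc1 was 2.15 higher, at least 1.71-fold, and tmod4 was lower by a difference of -1.82, at least 1.37-fold. Both sorted lines thus had higher atp2a1 and lower tmod4 than the 1 whole-embryo array of 18 hpf that they share. The cmlc1 call in Flk cells rests on its brightest probe, while for atp2a1 the 4th probe also passed the 2-fold limit. As means over all probes the differences of atp2a1 and cmlc1 were 0.73 and 0.57, which ended both calls. Those means include atp2a1 probes 1, 3 and 5 and cmlc1 probes 1 and 3, which were below background on both arrays. If the Flk cells were of 24 hpf, as the sample description has it, atp2a1 was lower than in whole embryos by a difference of -2.93.

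Stage within the Fli1 cells was compared over 3 arrays. From 18 to 24 hpf, 3 genes were called higher and 0 lower, where 4.97% of features were called higher and 3.76% lower, and the median was 0.67 against 0.02. They were atp2a1, 1.49 higher and 2.80-fold, tnnc2.2, 1.03 higher and at least 1.02-fold, and tmod4, 1.58 higher with no fold to give. The 4th atp2a1 probe differed by 0.07 and the 6th by -0.13, less than the control-spot SD, which does not cover probes this bright. The atp2a1 call was lost at 0.42 as the mean over probes. That mean includes probes 1, 3 and 5, which were below background on both arrays. The tnnc2.2 call was lost under 75th percentile scaling, at 0.84, and without background correction, at 0.91. The thin-filament sensor genes tnnc1b, 0.96 higher, and tnnc1a, with a difference of -0.62, were not called.

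From 24 to 28 hpf, 1 gene was called higher and 2 lower, where 8% of features were called higher and 9.94% lower, with a median of 0.29 against 0.08. The pump gene atp2a1 was 2.98-fold higher, with a difference of 1.58, and its 4th and 6th probes were 2.87-fold and 2.14-fold higher. Under 75th percentile scaling the atp2a1 difference was 0.52, with the scaled values of the authors 0.60, and as the mean over probes 0.79, all under 2-fold. That mean includes atp2a1 probes 3 and 5, which were below background on both arrays. For tmod4 the difference was -1.14, at least 1.195-fold lower, and for cmlc1 it was -1.35, at least 1.14-fold lower. The cmlc1 call was lost with the authors' scaled values, at -0.57, with joined scan settings, at -0.71, and as the mean over probes, at -0.77. That mean includes cmlc1 probes 1 and 3, which were below background on both arrays. The fast troponin C tnnc2.2 was 1.72-fold higher, a difference of 0.78 that was not called.

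Flk cells and Fli1 cells of 18 hpf differed in 1 gene, atp2a1, which was 2.25-fold higher in Flk cells with a difference of 1.17, where 5.5% of features were called higher and 3.64% lower. Its 4th probe differed by 0.12 and its 6th by -0.07, and the call was lost at 0.17 as the mean over probes. That mean includes probes 1, 3 and 5, which were below background on both arrays. The median of the 8 genes was 0.10, against 0.03 for all features. The heart gene cmlc1 was 0.43 higher, at least 1.26-fold, and tnnc1a differed by -0.87, 1.83-fold lower, neither of them called.

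The probes of 1 gene did not all follow each other. In whole embryos from 18 to 24 hpf, the 6 atp2a1 probes differed by 2.58, 6.06, 1.72, 4.01, 1.81 and -0.35 in the order of their numbers, so 5 were higher at 24 hpf and probe 6 was not. The 4th probe was 16.2-fold higher. At 24 hpf in Fli1 cells against whole embryos they differed by -1.84, -2.62, -1.08, -2.29, -2.13 and -0.02, again with probe 6 apart. That probe was above background on all 6 arrays, at 9.39 to 10.49. Which transcript it reads was not tested, and probes differ in how strongly they bind, so levels were not set against each other.

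For cmlc1, the 3 probes differed by 1.09, 4.72 and 0.85 between the whole-embryo stages, and the 3rd was below background on every array. In Fli1 cells against whole embryos at 24 hpf, the 1st cmlc1 probe differed by -1.29 and the 2nd by -3.02. The 2 tnnc1a probes went in opposite directions in that comparison, -1.31 for the 1st and 0.43 for the 2nd. A fold for these 3 genes is therefore that of 1 probe.

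**Figure D3:**
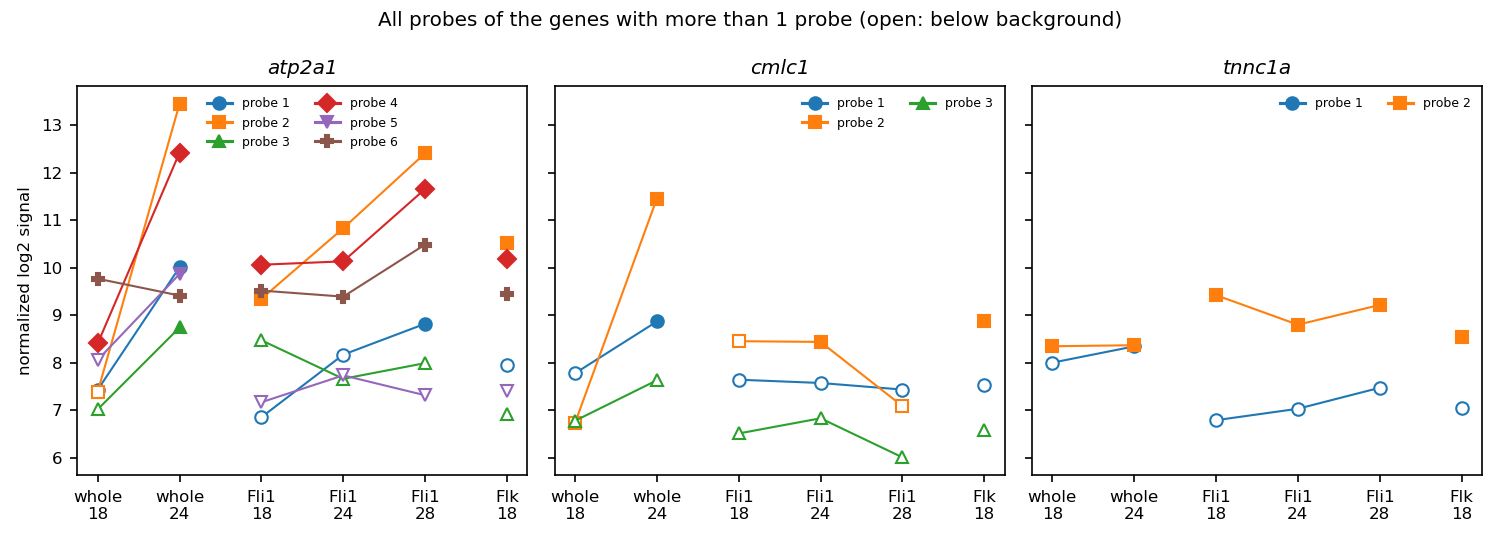
Normalized log2 signal of every probe of atp2a1, cmlc1 and tnnc1a on the 6 arrays, 1 symbol per probe, with lines joining the stages of whole embryos and of Fli1 cells. Filled symbols are above background and open symbols below it. Of the atp2a1 probes, 2 and 4 climb from whole embryos of 18 hpf to 24 hpf by 6.06 and 4.01, and probe 6 stays between 9.39 and 10.49 on all arrays.

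Sorted cells were also compared with whole embryos over all 6 arrays with limma, the one comparison with arrays to spare for an estimate of error (4 residual degrees of freedom). The spread it uses mixes stage, line and array, since none of the 6 is a replicate. None of the 8 genes (0) passed an adjusted p of 0.05 (limma, Benjamini-Hochberg over 6015 features), where 0.0499% of features passed as higher and 0.732% as lower. At an unadjusted p under 0.05 there was 1 of 8 genes, or 12.5%, against 1182 of 6015 features, or 19.7%.

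That gene was tmod4, with a log2 difference of -1.62 (SE 0.55, 95% interval -2.87 to -0.36) and an adjusted p of 0.198 in limma. It was below both whole-embryo arrays on 3 of 4 sorted arrays, and its adjusted p ran from 0.0585 to 0.527 over the alternatives. For tnnc1a the difference was 0.64 (SE 0.31, 95% interval -0.08 to 1.36), with an adjusted p of 0.285 in limma and all 4 sorted arrays above both whole-embryo arrays. The pump gene atp2a1 differed by 0.35 (SE 1.48, 95% interval -3.05 to 3.75) with an adjusted p of 0.903, the least precise of the 8.

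The others were lower in sorted cells on average and did not pass. Their differences were -1.62 for tnnc2.2, with SE 0.90 and an adjusted p of 0.334 in limma, -1.58 for pvalb2, with SE 0.80 and an adjusted p of 0.298, and -1.13, -1.10 and -0.88 for tnnc1b, ckma and cmlc1. These averages lean on the whole-embryo array at 24 hpf. Without it the differences were 0.16 for tnnc2.2, 0.10 for pvalb2, 0.64 for tnnc1b, 0.66 for ckma, 1.48 for cmlc1 and 3.38 for atp2a1, while tmod4 remained lower at -1.07.

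Without the whole-embryo array of 18 hpf, ckma passed with a difference of -2.85 and an adjusted p of 0.0354 in limma. That leaves 1 whole-embryo array, which is assumed to vary as the sorted arrays do, and it is the one array through which ckma entered the analysis. Stage was also taken as a block over the 4 arrays of whole embryos and Fli1 cells at 18 and 24 hpf, which leaves 1 residual degree of freedom. There tnnc2.2 and pvalb2 passed in limma, at -1.93 with an adjusted p of 0.00472 and -1.58 with 0.0390. Each value averages unlike differences at 18 and 24 hpf, -0.67 and -3.19 for tnnc2.2, and 0.07 and -3.24 for pvalb2. At 18 hpf neither gene has a fold, so the passes do not show a difference at both stages. In limma the error of a gene is drawn in part from all other features, and 1 residual degree of freedom adds little of its own. These adjusted p-values therefore do not measure the spread of the 2 genes over the stages.

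**Figure D4:**
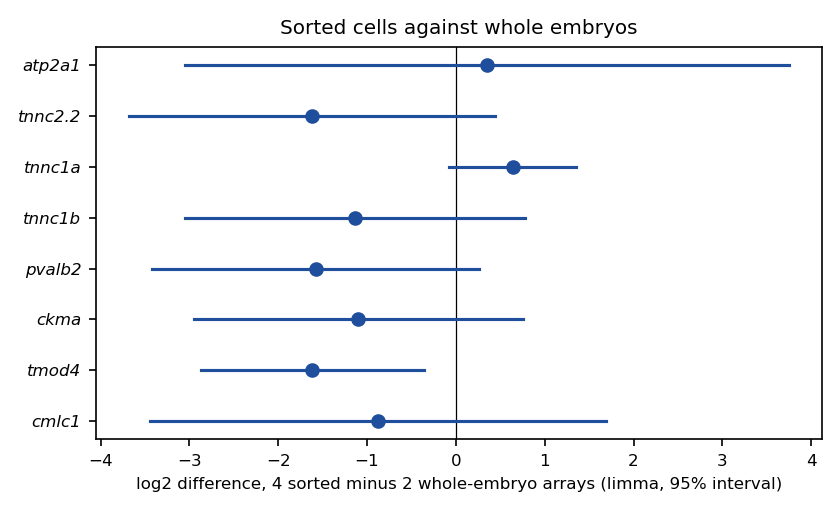
Log2 difference of each of the 8 genes between the 4 sorted and 2 whole-embryo arrays, from limma, with points for the estimate and lines for the 95% interval. The interval of tmod4, from -2.87 to -0.36, is the only one that leaves out 0, before adjustment, and that of atp2a1, from -3.05 to 3.75, is the widest.

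The genes were set in the wider contractile apparatus through 7 lists of muscle genes, of which 63 non-member genes were analysed. Between the whole-embryo stages 15 of the 63 were called higher and 2 lower, with a median of 0.20. In Fli1 cells against whole embryos at 24 hpf 1 was called higher and 16 lower, with a median of -0.34. Among all features 5.54% were called higher and 3.99% lower between the stages, and 4.39% and 7.76% in Fli1 cells. The 8 genes had medians of 3.53 and -2.65 in these 2 comparisons, which share an array. They were chosen with earlier results of these data known, so their distance from the 63 is not a test. At 18 hpf, 7 of the 63 were called higher and 5 lower in Fli1 cells, where 9.89% and 13% of all features were. In Flk cells 4 were called higher and 3 lower, where 6.88% and 6.7% of all features were. None of the 63 (0) passed in limma over 6 arrays, with a lowest adjusted p of 0.0939, and 11, or 17.5%, had an unadjusted p under 0.05, against 19.7% of all features.

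Partners of troponin C and tropomodulin on the thin filament went the same way as most of the 8 genes. Of 11 analysed, 6 were called higher at 24 than at 18 hpf in whole embryos, with a median of 1.14. In Fli1 cells at 24 hpf 6 were called lower, with a median of -1.002. Among all features 5.54% were called higher between the stages and 7.76% lower in Fli1 cells. Both comparisons use the 1 whole-embryo array at 24 hpf. At 18 hpf 2 of the 11 were called higher and 0 lower, in Fli1 and in Flk cells alike. Among all features 9.89% were called higher and 13% lower in Fli1 cells, and 6.88% and 6.7% in Flk cells. In 11 genes these counts at 18 hpf do not set the list apart. The tropomyosin gene tpm3 was 2.42-fold higher between the whole-embryo stages and 4.58-fold lower in Fli1 cells. The fast troponin T genes tnnt3a and tnnt3b were 2.28-fold and at least 3.12-fold higher in whole embryos at the later stage, and at least 2.92-fold and 2.81-fold lower in the sorted cells. The fast troponin I gene tnni2b.1, the inhibitory subunit, was at least 1.89-fold higher and at least 1.70-fold lower.

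Among 9 thick-filament and light-chain genes besides cmlc1, 3 were called higher and 1 lower between whole-embryo stages, and 4 were called lower in Fli1 cells at 24 hpf. Among all features 5.54% were called higher and 3.99% lower between the stages, and 7.76% lower in Fli1 cells. The light chain genes myl13 and mylpfb were 7.59-fold and at least 2.76-fold lower in the sorted cells, and 8.15-fold and at least 3.07-fold higher at 24 than at 18 hpf in whole embryos. The light chain genes myl10 and mylpfa were 3.68-fold and 2.02-fold lower in the sorted cells and were not called between the stages, at 0.17 and 0.73.

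Genes that share a role with ckma also included some that were higher at 24 hpf. Of 11 genes of energy metabolism, 4 were called higher between whole-embryo stages and 1 lower in Fli1 cells, aldoab, a glycolytic aldolase, which was 4.15-fold higher at 24 hpf and 2.82-fold lower in the sorted cells. Of 4 genes for myosin chaperones and assembly, 2 were called higher at 24 hpf, and smyd1a, a methyltransferase of myosin assembly, was at least 1.05-fold lower in Fli1 cells. Among all features 5.54% were called higher between the stages and 7.76% lower in Fli1 cells at 24 hpf. In lists this short, 1 gene called lower in Fli1 cells does not set a list apart.

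Of 7 other genes of calcium handling and excitation, the roles of atp2a1 and pvalb2, 0 were called in either of the 2 comparisons, with medians of 0.06 and 0.38. With 5.54% and 7.76% of all features called higher between the stages and lower in Fli1 cells, a count of 0 in so few genes does not set them apart. Of 8 genes of the Z disc and cytoskeleton, 0 were called between whole-embryo stages. In Fli1 cells at 24 hpf desma, the intermediate filament gene desmin a, was at least 1.95-fold lower, fhl1b was also called lower, at -1.01, and csrp3, a LIM protein gene of striated muscle, was 2.104-fold higher.

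Of 13 transcription factors of muscle and heart, 0 were called higher and 1 lower between whole-embryo stages. The 1 was the cardiac factor gene nkx2.7, 2.096-fold lower at 24 hpf. In Fli1 cells at 24 hpf 0 were called higher and 2 lower, tbx20, 3.07-fold lower, and nkx2.7, at -1.06 with no fold. Among all features 5.54% were called higher and 3.99% lower between the stages, and 4.39% and 7.76% in Fli1 cells. In so few genes these counts do not set the list apart. The tbx20 signal was 10.50, 8.50 and 11.65 in Fli1 cells at 18, 24 and 28 hpf and 10.28 in Flk cells. Whole embryos read 9.72 and 10.11, so among the sorted arrays tbx20 was lower in Fli1 cells at 24 hpf alone.

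Markers of other cell types differed between the same arrays. Among all features 4.39% were called higher and 7.76% lower in Fli1 cells at 24 hpf, and 5.54% higher between the whole-embryo stages. At 24 hpf, 11 of 15 epidermis genes were called lower and 1 higher in Fli1 cells, with a median of -1.85, krt5 at least 10.8-fold and cyt1 4.04-fold lower. Their summed intensity was 302584 and 298000 in whole embryos at 18 and 24 hpf and 14334 to 33605.5 in sorted cells. Of 8 erythroid genes 6 were called higher in the sorted cells at 24 hpf, among them the globins hbae1.1, 4.53-fold, and hbae3, 6.11-fold, and 4 were called higher between the whole-embryo stages. Their summed intensity was 3437.5 and 29495.5 in whole embryos and 7296.5 to 96193 in sorted cells. Of 5 endothelial genes 1 was called higher in Fli1 cells at 24 hpf, with a median of 0.79, a count that does not set so short a list apart. The genes lmo2 and tal1, regulators of early blood and endothelium, were 1.94-fold and 1.73-fold higher, under the limit of a call. The genes that name the lines were read too: kdrl was 1.60-fold higher, also not called. The endothelial summed intensity was 3751 and 2598 in whole embryos and 2164.5 to 3621 in sorted cells, and fli1 itself was above background in Flk cells alone. Summed intensities are not normalized, and the arrays differed in brightness, with a 99th percentile of 20536 and 26835 on the whole-embryo arrays and 3039 to 10112 on the sorted ones. The part of these 3 lists in the levels of the 8 muscle genes was not tested.

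**Figure D5:**
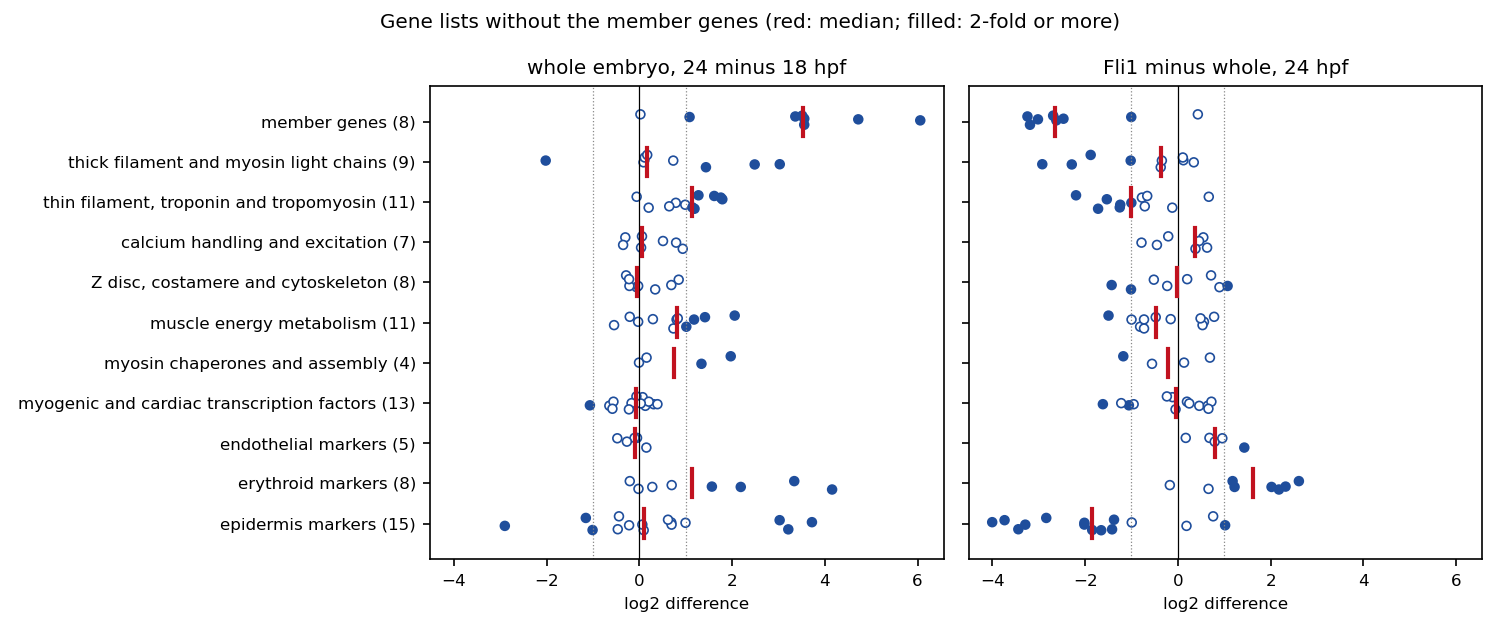
Log2 difference of every analysed gene of the 8 member genes and of 10 lists, 1 point per gene, between whole-embryo stages and between Fli1 cells and whole embryos at 24 hpf. Red bars are medians, filled points are called at 2-fold, and numbers of genes stand after each name. The 8 genes have medians of 3.53 and -2.65, further from 0 than those of the 10 lists in these 2 comparisons, and thin-filament genes have 1.14 and -1.002. The 8 genes were chosen with earlier results of these data known, so this distance is not a test.

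The genes were also compared by the shape of their signal over the 6 arrays, as a description. Their average, centred on each gene's mean, was -1.04 and 2.19 in whole embryos, -0.64, -0.03 and 0.08 in Fli1 cells and -0.57 in Flk cells. Against the mean of the other members, ckma and tnnc1b correlated at 0.993 each, tnnc2.2 at 0.942, pvalb2 at 0.940, atp2a1 at 0.761, cmlc1 at 0.760, tmod4 at 0.596 and tnnc1a at -0.31 (Pearson, 6 arrays). These correlations rest largely on the 1 high array of whole embryos at 24 hpf.

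Of 3207 other named genes, the 10 whose signal was most like the average of the members were egfl6 (Pearson r 0.994 over 6 arrays), atp1b1b and zgc:110239 (both 0.985), chmp7 (0.982), mospd1 (0.977), ier5l (0.972), dct (0.969), paip2b (0.967), eno1b (0.965) and arcn1b (0.960). Of these 10, 0 stand in the 7 muscle lists, which hold only 63 of the 3207 genes. A count of 0 therefore does not set the 10 apart. Of the 10, 6 (egfl6, atp1b1b, chmp7, dct, paip2b and eno1b) were above background on the whole-embryo array at 24 hpf alone. They thus entered through the array where the members peak. The signal of paip2b ran only from 7.81 to 8.22. Among the best known, dct encodes an enzyme of melanin synthesis, eno1b an enolase of glycolysis and atp1b1b a subunit of the sodium pump.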

How the data were processed

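RNA of sorted cells and of whole embryos was, per the labels' protocols, amplified with the AmpTec ExpressArt kit and labelled with Cy3. The deposited scanner files give, per the file headers, an intensity for each spot and another for the background around it, at scan settings 45, 55 and 65, a ratio of spot to background and a flag score. The authors also deposited intensity joined over the settings and a scaled intensity, and the value table equals that scaled intensity within 4.3e-07, on a linear scale, not centred on genes, with column medians of 0.801, 0.816, 0.922, 0.856, 0.922 and 0.869 (whole embryos at 18 and 24 hpf, Fli1 cells at 18, 24 and 28 hpf, Flk cells). Scanner and image software are not given in the sources used here.

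Intensity at setting 55 was corrected with normexp (offset 50) and quantile normalized in limma 3.58.1 (R 4.3.3), and log2 was taken. Control spots stayed out of the tests, and 68 probes with a flag were left out. Names came from the RefSeq gene table (GRCz12tu, names only) for 8364 of 14067 probes, 5703 being unnamed. A gene or unnamed probe was analysed if it exceeded background on 1 array or more (6015, of which 3215 named). No probe of the 8 genes was saturated. A bound sets the bright side against the dim array's lowest signal that exceeded background, or the gene's own signal where that is higher. No pair of arrays has a replicate, so those comparisons carry no test, and the number of arrays limits the precision. The limma code was checked on simulated data.

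The members and the lists were chosen with earlier results of these data known. Every member probe was described. From each muscle list up to 4 called non-member genes with the largest difference between Fli1 cells and whole embryos at 24 hpf were named, from the other lists 2 genes of high signal (kdrl and fli1, which name the lines, were added after values were seen), and 10 genes by likeness. Alternatives were 75th percentile scaling, the authors' scaled values, no background correction, joined scan settings, the mean over probes, other filters on dim probes, Flk cells as 24 hpf, leaving out each array, and stage as a block.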

Additional observations from a re-analysis of the deposited data

Results flagged for a closer look

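The calcium pump gene atp2a1 stood on opposite sides of the whole embryo at the 2 stages: its log2 signal in Fli1 cells minus whole embryos was 1.95 at 18 hpf and -2.62 at 24 hpf. Its 4th probe gave the same signs, 1.65 and -2.29. Before normalization, that 4th probe had a background-subtracted intensity of 493 in whole embryos and 495 in Fli1 cells at 18 hpf. The 6th atp2a1 probe, above background on all 6 arrays, gave -0.25 and -0.02. The mean over probes was 0.56 at 18 hpf, where probes 1, 3 and 5 were below background on both arrays. In the Fli1 cells themselves the signal was 9.35 and 10.83, and in whole embryos 7.40, below background, and 13.45. The difference between the stages was not tested, since each condition has 1 array.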

How the results depend on the processing

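The counts of 7 genes higher at 24 hpf in whole embryos and 7 lower in Fli1 cells at 24 hpf were 7 and 6 to 7 under the alternatives run, with 6 where tmod4 lost its call without background correction. The exception was the filter to genes whose brightest probe was above background on all 6 arrays, which keeps tnnc1a alone. Under it the medians were 0.022 (0 higher) for the whole-embryo stages, 0.43 (0 lower) for Fli1 cells at 24 hpf, 1.07 (1 higher, 0 lower) for Fli1 cells at 18 hpf, -0.62 (0 higher) for Fli1 cells from 18 to 24 hpf and -0.87 (0 higher) for Flk against Fli1 cells, with 0 higher and 0 lower for Flk cells against whole embryos and for Fli1 cells from 24 to 28 hpf. The 4th and 6th atp2a1 probes were also above background on all 6 arrays, but neither is the brightest of its gene, so that filter left them out. Between the whole-embryo stages they differed by 4.01 and -0.35, and in Fli1 cells against whole embryos at 24 hpf by -2.29 and -0.02. With 75th percentile scaling the medians were 4.24 for the whole-embryo stages and -3.15 for Fli1 cells at 24 hpf, with 1 gene higher in Fli1 cells at 18 hpf and 0 higher from 24 to 28 hpf. The authors' scaled values gave 4.41 and -3.34, with 1 higher at 18 hpf, and 0 higher and 1 lower from 24 to 28 hpf. They moved the median of all features in Fli1 cells at 18 hpf from 0.02 to -0.21. The count of 3 higher in Fli1 cells from 18 to 24 hpf was 2 under 75th percentile scaling, no background correction and the mean over probes. Joined scan settings gave 2 lower in Fli1 cells at 18 hpf, 1 lower from 24 to 28 hpf and 1 lower in Flk against Fli1 cells. The mean over probes gave medians of 2.999 and -2.08, 0 higher in Fli1 and in Flk cells at 18 hpf, 0 higher and 1 lower from 24 to 28 hpf and 0 higher in Flk against Fli1 cells, and tnnc1a in Fli1 cells at 18 hpf turned to -0.068. Taken as 24 hpf, Flk cells had a median of -3.04 against whole embryos (0 higher, 7 lower), with atp2a1 at -2.93 and cmlc1 at -2.57, and of -0.51 against Fli1 cells (0 higher, 1 lower), with atp2a1 at -0.31. The cause of these shifts was not tested, beyond the fewer genes or other arrays used.

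In limma over sorted and whole arrays, 0 genes passed, and leaving out each array in turn gave 0 to 1, the 1 being ckma without the whole-embryo array of 18 hpf, where 1 array stands for whole embryos and is assumed to vary like the rest. With stage as a block 2 passed, with 1 residual degree of freedom and an error drawn in large part from other features. No paired analysis was possible because the labels carry no replicate numbers and each condition has 1 array. Signal near background limits ckma, pvalb2, tmod4 and, at 18 hpf, most of the 8 genes.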

Other observations

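Probes that the annotation describes without a gene name were also read, chosen after the annotation was seen. A probe described as skeletal myosin heavy chain, the motor protein of the thick filament, was below background at 7.11 in whole embryos at 18 hpf and read 11.35 at 24 hpf, with 7.71, 8.35 and 10.66 in Fli1 cells at 18, 24 and 28 hpf and 8.11 in Flk cells. Among the sorted arrays it was highest in Fli1 cells at 28 hpf, as atp2a1 was. The other two probes of that description were below background on all 6 arrays. Of 3 probes described as an atp2a1-like calcium pump, none was higher at 24 than at 18 hpf in whole embryos: their log2 differences were -0.02, -1.27 and -0.06. Of 3 probes described as titin and 4 as ventricular myosin heavy chain, none was 2-fold higher between these stages, and the differences ran from -0.50 to 0.76. On the whole-embryo arrays only probe 1 of ventricular myosin heavy chain was above background, at 24 hpf with 8.17. For the rest, a change between these stages could not be read. The 2nd titin probe was above background on the 4 sorted arrays, at 8.45 to 8.70, and on neither whole-embryo array, at 7.86 and 7.80. In Fli1 cells at 18 hpf this was narrow, at 8.61 against a lowest signal above background of 8.55. The limit in background-subtracted intensity was 370 and 308.5 on the whole-embryo arrays and 212 to 241 on the sorted ones. The order of this probe before normalization was not compared.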
